A study of Mus musculus with 12 samples.

Results

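The genes described here mark or regulate the endothelium of blood and lymphatic vessels. They are 38 of the 19935 genes measured, taken as a list of angiogenic ligands, receptors, and vascular and lymphatic markers, and all 38 had a measured transcript cluster, the probe set that reads 1 transcript on the array. The tissue was the anterior prostate of male mice, measured whole and unsorted with Affymetrix Mouse Gene 1.0 ST arrays. The APT121 mice carry T121, a truncated large T antigen of SV40 that inactivates the pRb proteins, expressed from the probasin promoter in prostate epithelium. The study was made to profile their lesions of prostatic intraepithelial neoplasia (PIN), precursors of carcinoma that lie within the glands. Their controls were wild type animals, labelled B6D2F3, and both groups were F3 mice of mixed C57BL/6J and DBA/2 descent. All were taken at 12 weeks of age and had been given AIN93G, a semi-purified diet, from 3 weeks. Each array held RNA of 2 mice in equal amounts, so 4 arrays stand for 8 APT121 mice and 8 arrays for 16 wild type mice. A replicate is therefore a pool, and the p-values measure the spread between pools.

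Endothelial cells line every vessel and exchange signals with the epithelium and stroma around them. VEGF-A, secreted by many cell types, acts on the receptor tyrosine kinases VEGFR2 and VEGFR1 of blood endothelium, and VEGF-C and VEGF-D act on VEGFR3, which in adults is mainly lymphatic. The angiopoietins act on the receptor Tie2, with angiopoietin 1 as its activator in the quiet vessel and angiopoietin 2 as a context-dependent antagonist released by activated endothelium.

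Values below are log2 intensities, each difference is APT121 minus wild type with its SE, and p-values come from limma, adjusted over all genes, with 0.05 as the threshold. Means carry the SD over 4 APT121 or 8 wild type arrays. A level on an array depends on the probes, so single genes are not ranked by level. Array medians ran from 32.1 to 33.7 on the linear scale. Of all 19935 genes, 52.8% passed the threshold, 30.0% lower and 22.8% higher in APT121, and the median difference was -0.09. The number of arrays limits the precision. In whole tissue, a smaller share of endothelial cells among all cells and less of a transcript in each endothelial cell cannot be told apart.

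Markers of other tissues also differed between arrays. The summed intensity of 7 seminal vesicle markers was 1544, 17960, 11200 and 14150 in APT121 arrays 1 to 4 and 15770 in wild type array 6, against 85 to 180 in the other 7 wild type arrays. Svs2, Svs5 and Pate4 rose, by 6.17, 5.10 and 5.43. The other 4 markers did not pass, with Svs4 at 1.94 but Svs3a, Svs6 and Sva at -0.48, -0.46 and -0.41. Adipocyte markers were highest in wild type arrays 5 and 7, with sums of 484 and 582 over 8 genes. The median of the 38 endothelial genes was 5.60 in wild type array 6, inside the wild type range of 5.55 to 5.79. In APT121 array 1, which had the least seminal vesicle signal of its group, it was 5.28, inside the APT121 range of 5.14 to 5.31. Outside wild type array 6 the seminal vesicle signal ran with genotype, and its part in the endothelial differences was not tested. With wild type arrays 5, 6 and 7 left out, 20 of the 38 endothelial genes were lower and 1 higher. In that fit 25.5% of all genes were lower and 21.2% higher.

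Endothelial transcripts were mostly lower in APT121 prostate. Of the 38 genes, 23 fell, which is 60.5% of them against 30.0% of all genes, and 1 rose (2.63% against 22.8%). The other 14 did not pass the threshold. The difference was below 0 in 36 of the 38, and their median was -0.31 against -0.09 for all genes. In 15 genes all 4 APT121 arrays lay below all 8 wild type arrays, an order that 16.9% of all genes showed. One gene, Podxl, had all APT121 arrays above, as 17.7% of all genes had. The falls that passed were modest in size, from -0.27 for Egfl7 to -1.06 for Emcn. A fall of at least 0.5 was seen in 9 genes (Emcn, Kdr, Eng, Cd34, Ramp2, Pecam1, Plvap, Flt1 and Tal1). By at least 1.5-fold, 5 of the 38 were lower and none higher, while 6.34% of all genes were lower and 11.5% higher.

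**Figure D1:**
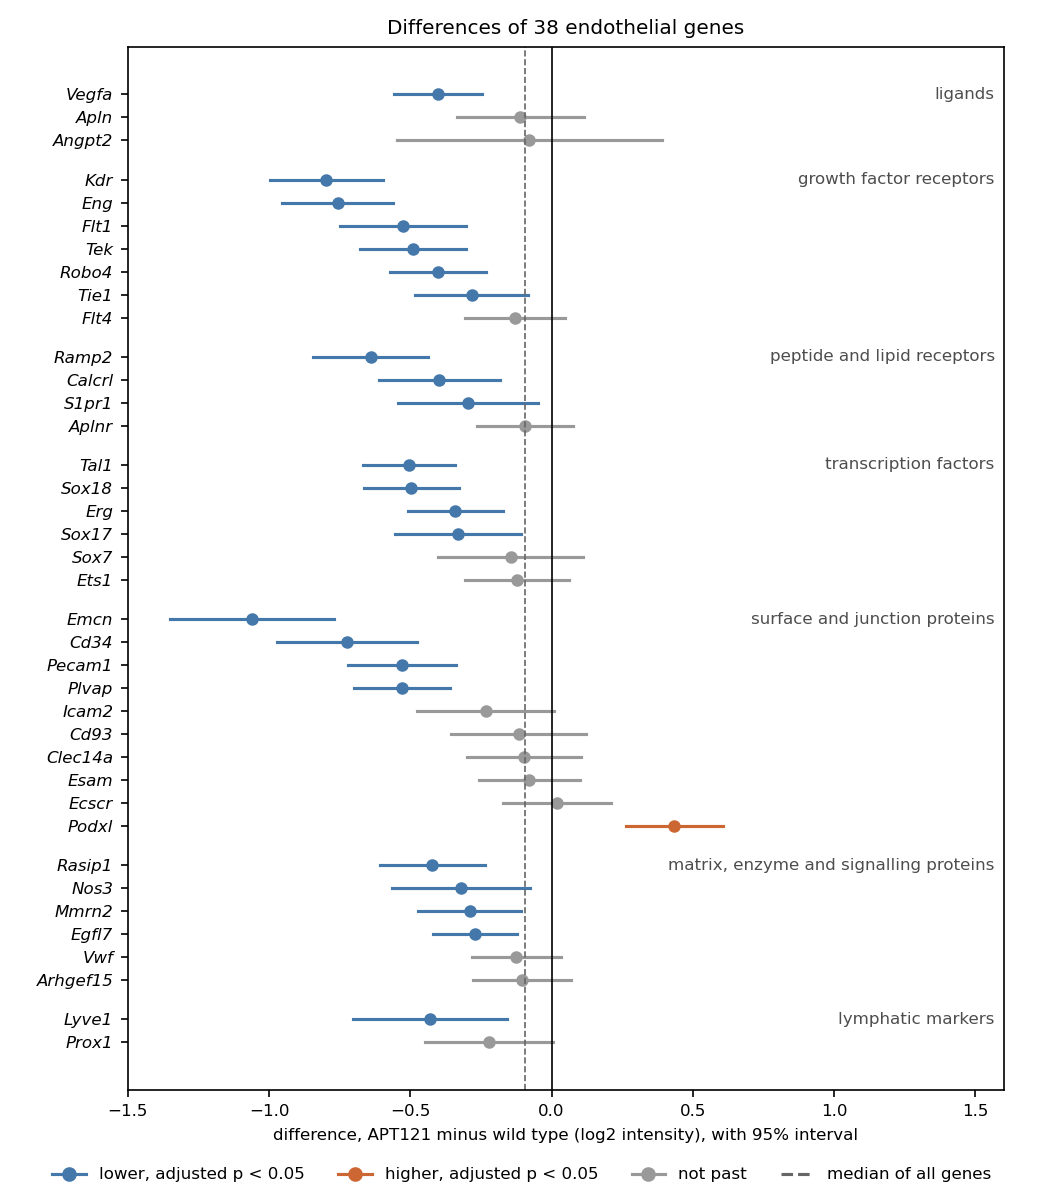
Difference in log2 intensity between 4 APT121 and 8 wild type arrays for each of the 38 genes, with its 95% interval, in blocks by role; the dashed line is the median difference of all genes (-0.09). Growth factor receptors lie furthest to the left as a block, Emcn is the lowest single gene (-1.06), and Podxl is the only coloured point to the right of 0 (0.43).

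Endothelium was followed with Pecam1, Cdh5, Kdr, Tie1, Emcn and Cldn5. They encode the adhesion molecule CD31, VE-cadherin, VEGFR2, an orphan receptor related to Tie2, endomucin and claudin 5. All 6 were lower in APT121. Pecam1 was 6.26, 6.18, 6.17 and 6.00 in APT121 arrays 1 to 4, and it ran from 6.36 to 6.85 in wild type with a median of 6.75. The groups did not overlap. The difference of Pecam1 was -0.53 ± 0.09 (adjusted p 1.37e-04), a 1.44-fold lower intensity. Cdh5 and Cldn5 are not among the 38 genes and fell by 0.37 ± 0.09 (adjusted p 0.00270) and by 0.42 ± 0.11 (adjusted p 0.00485). For both of them the groups overlapped. The others are among the 38 and so give no separate check.

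Promoter sequence is shown for Emcn, Kdr and Eng, the 3 genes with the largest falls, and for Flt4, a receptor gene that did not pass the threshold. The windows are the 250 bases before the annotated start in RefSeq's mouse genes (GRCm38.p6), written on the gene's strand. Capitals mark each GGAA, the core bound by ETS factors such as the proteins of Erg, Ets1 and Fli1, or its reverse complement TTCC.
Emcn (chr3:137340828-137341077, plus strand): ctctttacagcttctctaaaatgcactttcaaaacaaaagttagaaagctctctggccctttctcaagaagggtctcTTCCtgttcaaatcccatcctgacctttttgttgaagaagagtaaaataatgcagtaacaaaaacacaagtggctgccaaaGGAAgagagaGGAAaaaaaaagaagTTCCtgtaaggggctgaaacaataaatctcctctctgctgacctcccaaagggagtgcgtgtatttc
Kdr (chr5:75978456-75978705, minus strand): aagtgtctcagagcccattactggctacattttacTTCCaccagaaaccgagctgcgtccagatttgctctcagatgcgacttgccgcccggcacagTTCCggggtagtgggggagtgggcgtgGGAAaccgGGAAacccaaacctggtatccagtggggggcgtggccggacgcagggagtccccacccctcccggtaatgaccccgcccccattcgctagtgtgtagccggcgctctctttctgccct
Eng (chr2:32646345-32646594, plus strand): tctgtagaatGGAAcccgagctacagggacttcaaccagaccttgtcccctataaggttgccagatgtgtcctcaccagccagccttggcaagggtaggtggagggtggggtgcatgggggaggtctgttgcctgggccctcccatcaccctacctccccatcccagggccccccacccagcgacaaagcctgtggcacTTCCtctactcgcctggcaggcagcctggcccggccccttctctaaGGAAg
Flt4 (chr11:49609429-49609678, plus strand): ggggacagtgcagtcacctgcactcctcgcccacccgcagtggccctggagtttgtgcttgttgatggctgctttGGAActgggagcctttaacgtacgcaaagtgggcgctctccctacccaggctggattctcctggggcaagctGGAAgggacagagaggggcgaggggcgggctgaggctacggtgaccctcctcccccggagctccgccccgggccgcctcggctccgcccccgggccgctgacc

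The capitals give 4 ETS cores in the Emcn window, 4 in Kdr, 3 in Eng and 2 in Flt4. Of the 38 genes, 18 had a promoter in the RefSeq table, with 25 windows in all. Both strands were searched. GGAA was in 96.0% of these 25 windows and in 93.4% of 32851 windows of all genes, shares close to each other. The longer ETS sequence CCGGAAGT, which contains GGAA, was in 0 of 25 against 2.88% of all windows. The SOX sequence ACAAT was in 28.0% against 27.7%, the GATA sequence GATAAG in 4.0% against 6.55%, and the hypoxia response sequence ACGTG in 8.0% against 16.6%. Vegfa and Clec14a each had 1 window with ACGTG.

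Among the ligands, Vegfa fell and the genes of the peptide apelin and of angiopoietin 2 did not pass the threshold. Vegfa was 7.35, 7.28, 7.41 and 7.36 in the APT121 arrays and 7.58 to 7.95 in wild type, with a median of 7.72. All APT121 arrays were below all wild type arrays, with a difference of -0.40 ± 0.07 (adjusted p 2.69e-04). Apln was 4.51, 4.25, 4.67 and 4.59 in APT121 and 4.34 to 4.87 in wild type (median 4.64). The Apln groups overlapped, and its difference was -0.11 ± 0.11 (95% interval -0.33 to 0.11).

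Angpt2 varied more within each group than any other of the 38 genes, with an SE of 0.22 against at most 0.14 for the rest. It was 5.19, 4.68, 4.14 and 4.54 in the APT121 arrays and ran from 4.06 to 5.31 in wild type (median 4.66). The groups covered nearly the same range, and the difference was -0.08 ± 0.22 (95% interval -0.55 to 0.39). Wild type arrays 1 to 4 averaged 5.07 and arrays 5 to 8 averaged 4.36. Set against arrays 5 to 8 alone the difference was 0.27, and it also lay above 0 without wild type array 3 (0.01), without APT121 array 3 (0.09) and with array weights (0.11), never past the threshold. No direction is therefore given for Angpt2.

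Receptors for vascular growth and guidance factors held the largest share of falls among the roles, 6 of 7 (85.7%, against 30.0% of all genes). Their median difference was -0.49. Kdr, the gene of VEGFR2, was 5.24, 5.46, 5.04 and 5.12 in APT121 and 5.75 to 6.20 in wild type (median 6.03). The groups were apart, and the difference was -0.80 ± 0.09 (adjusted p 2.87e-06), a 1.74-fold fall. Flt1 encodes VEGFR1, which binds VEGF-A tightly and limits its action on VEGFR2. It was 5.80, 5.57, 5.46 and 5.53 in APT121 and 5.82 to 6.49 in wild type (median 6.11), so APT121 array 1 lay just under the lowest wild type array. Its difference was -0.53 ± 0.11 (adjusted p 5.98e-04). Eng encodes endoglin, a co-receptor for ligands of the BMP and TGF-beta family, and averaged 6.44 ± 0.09 in APT121 and 7.20 ± 0.18 in wild type. The groups of Eng did not overlap, and its difference was -0.76 ± 0.09 (adjusted p 4.21e-06).

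The angiopoietin receptor gene Tek was lower without overlap, at 4.91, 4.70, 4.66 and 4.81 in APT121 and 5.06 to 5.50 in wild type (median 5.23), a difference of -0.49 ± 0.09 (adjusted p 2.26e-04). Tie1 was 5.38, 5.19, 5.17 and 5.16 in APT121 and 5.28 to 5.85 in wild type (median 5.45). APT121 array 1 lay within the wild type range of Tie1, and the difference was -0.28 ± 0.09 (adjusted p 0.0200). Tie1 no longer passed without APT121 array 2, 3 or 4, with differences of -0.27, -0.27 and -0.26 and adjusted p of 0.0539, 0.0517 and 0.0560. It was also lost by the SAM-type statistic (adjusted p 0.0663) and without wild type arrays 5, 6 and 7 (0.0511). Robo4, a guidance receptor that stabilises vessels, fell by 0.40 ± 0.08 without overlap (adjusted p 5.59e-04).

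Flt4, the gene of VEGFR3, was the receptor gene of this kind that did not pass. It was 4.65, 4.52, 4.51 and 4.34 in APT121 and 4.33 to 4.76 in wild type, with a median of 4.65. Its lowest wild type value, in array 2, stood below every APT121 value. The difference was -0.13 ± 0.08 (95% interval -0.31 to 0.05, adjusted p 0.197). Without wild type array 2 it was -0.17 (adjusted p 0.0474), and without APT121 array 4 it was -0.08 (adjusted p 0.493).

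**Figure D2:**
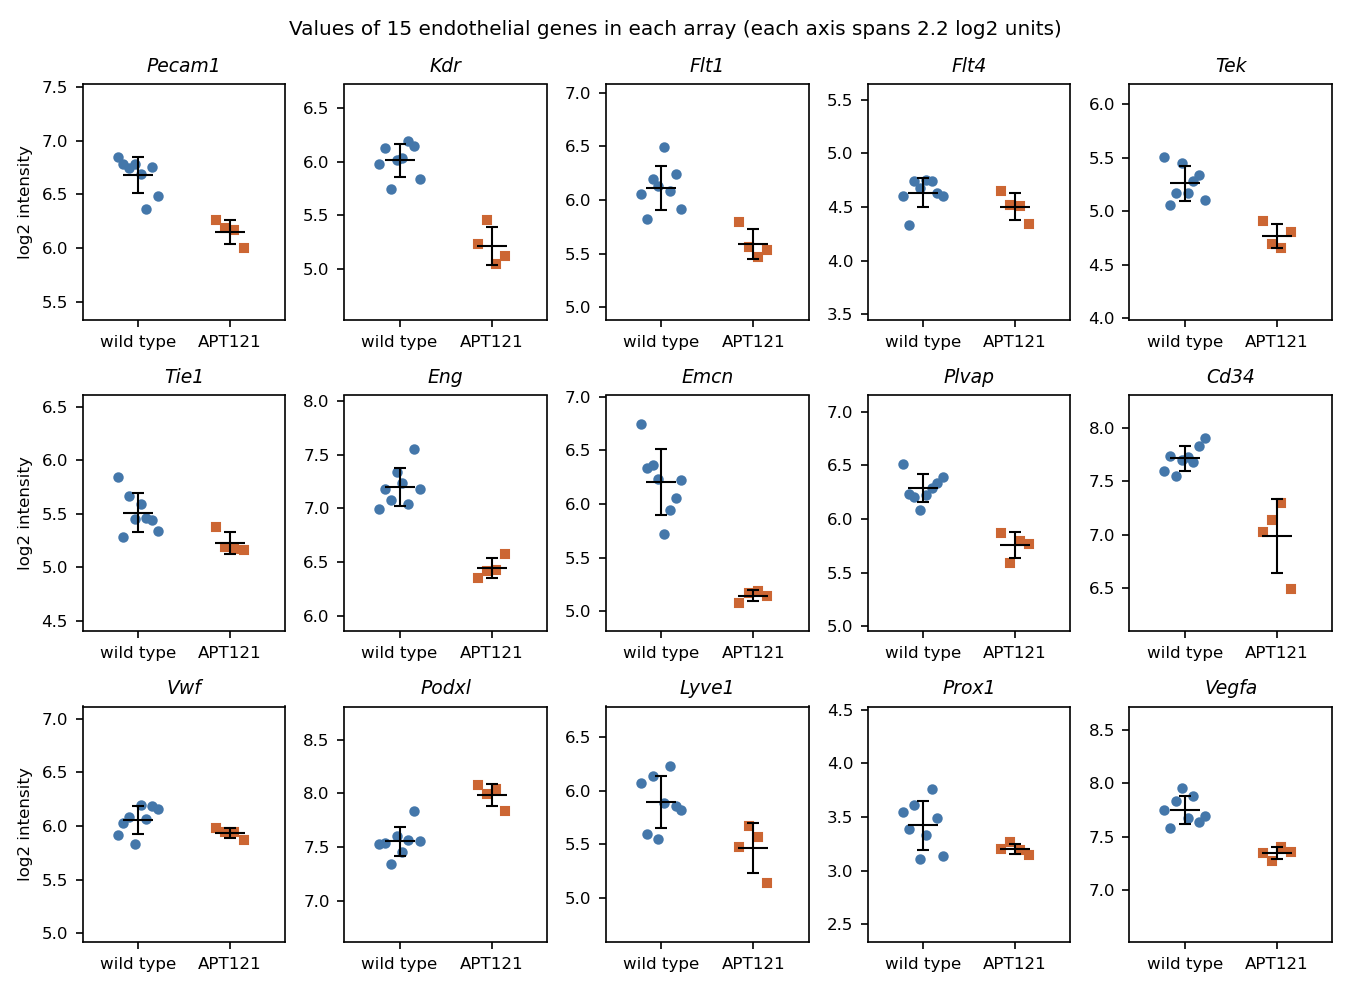
Log2 intensity of 15 endothelial genes in each array, wild type (8 circles) and APT121 (4 squares), with mean and SD; every vertical axis spans the same number of log2 units. Kdr, Eng, Emcn, Plvap, Cd34, Pecam1, Tek, Flt1 and Vegfa separate with APT121 below, Podxl with APT121 above (7.84 to 8.08 against 7.34 to 7.83), and Flt4, Tie1, Vwf, Lyve1 and Prox1 overlap.

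Receptors for peptides and lipids held 4 of the genes (median -0.35), of which 3 fell, or 75% against 30.0% of all genes. Ramp2 and Calcrl encode the partner proteins that form a receptor for adrenomedullin, a peptide that keeps endothelium intact. Ramp2 fell by 0.64 ± 0.10 without overlap (adjusted p 3.62e-05), and Calcrl by 0.40 ± 0.10 (adjusted p 0.00364) with APT121 array 2 inside the wild type range. S1pr1, a receptor for sphingosine 1-phosphate, averaged 5.67 ± 0.34 in APT121, where array 3 at 6.15 was above every wild type array. Its difference of -0.29 ± 0.12 passed narrowly (adjusted p 0.0445). The S1pr1 call was lost when any 1 of wild type arrays 1, 2, 3, 7 and 8 or of APT121 arrays 1, 2 and 4 was left out, with differences from -0.19 to -0.30 and adjusted p from 0.0547 to 0.197. Without APT121 array 3, the high one, the difference was -0.45 (adjusted p 6.85e-04). The call was also lost with log2(value + 16) (adjusted p 0.0606), by the SAM-type statistic (adjusted p 0.0946) and with wild type arrays 1 to 4 or 5 to 8 as the only controls (adjusted p 0.0658 and 0.200).

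Aplnr, the apelin receptor gene, was 4.91, 5.01, 5.13 and 5.14 in APT121 and 4.99 to 5.38 in wild type (median 5.13). The groups overlapped, as those of its ligand gene Apln did. The difference of Aplnr was -0.09 ± 0.08 (95% interval -0.26 to 0.08).

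Of the 6 transcription factors, 4 fell (66.7%, against 30.0% of all genes), with a median difference of -0.34 over all 6. Tal1, a factor of haematopoietic and endothelial cells, fell by 0.50 ± 0.08 (adjusted p 4.56e-05) and Sox18, which acts in vessel and lymphatic development, by 0.50 ± 0.08 (adjusted p 7.65e-05), both without overlap. Erg, an ETS factor that maintains endothelial identity, fell by 0.34 ± 0.08 (adjusted p 0.00196), and 1 APT121 array overlapped the wild type range. Sox17, a factor of arterial endothelium, fell by 0.33 ± 0.11 (adjusted p 0.0151). Sox17 no longer passed without APT121 array 2 (-0.26, adjusted p 0.0699) or 4 (-0.28, adjusted p 0.0572), with repeated quantile normalisation (adjusted p 0.0738) and with only wild type arrays 5 to 8 as controls (adjusted p 0.0938). Sox7 at -0.15 ± 0.12 and the broadly expressed ETS gene Ets1 at -0.12 ± 0.09 did not pass.

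Of 10 surface and junction proteins, 4 were lower, 1 (Podxl) was higher and 5 did not pass. The shares were 40% lower and 10% higher, against 30.0% and 22.8% of all genes. Emcn encodes endomucin, a sialomucin of capillary and venous endothelium. It was 5.07, 5.17, 5.19 and 5.14 in APT121 and 5.72 to 6.75 in wild type (median 6.23). The 4 APT121 arrays lay close together and all wild type arrays well above them, with a 2.09-fold difference of -1.06 ± 0.14 (adjusted p 7.60e-06). Wild type arrays 5, 6 and 7 were the 3 lowest of their group for Emcn, at 5.72 to 6.06 against 6.22 to 6.75 in the other 5.

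Cd34 marks endothelium and also some fibroblasts and progenitor cells. It was 7.02, 7.14, 7.30 and 6.49 in APT121 and 7.55 to 7.90 in wild type (median 7.71), so APT121 array 4 was the lowest by a wide margin and all 4 were below wild type. The Cd34 difference was -0.73 ± 0.12 (adjusted p 7.62e-05). Plvap encodes the protein of the diaphragms that span the pores of fenestrated capillaries. It was 5.87, 5.59, 5.79 and 5.77 in APT121 and 6.08 to 6.51 in wild type (median 6.26), without overlap, and its difference was -0.53 ± 0.08 (adjusted p 4.20e-05).

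Podxl was the only one of the 38 genes that rose. Its APT121 values are given for each array because of that result, a choice made after they were seen. Podxl encodes podocalyxin, a sialomucin related to CD34 that lies on the luminal face of endothelium and on the free surface of several epithelia. It was 8.08, 7.99, 8.04 and 7.84 in APT121 and 7.34 to 7.83 in wild type (median 7.55), so the lowest APT121 array was just above the highest wild type array. Its difference was 0.43 ± 0.08 (adjusted p 3.08e-04).

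The other 5 surface genes did not pass. Icam2, an adhesion molecule for leukocytes, differed by -0.23 ± 0.11 (adjusted p 0.0964). It passed without wild type array 8 (-0.30, adjusted p 0.00657), after centring each array (-0.28, adjusted p 0.0390) and with only wild type arrays 1 to 4 as controls (-0.32, adjusted p 0.0219). Esam, a junctional adhesion molecule, differed by -0.08 ± 0.08, and Cd93 and Clec14a, related lectin-like receptors that bind Mmrn2, by -0.12 ± 0.11 and -0.10 ± 0.09. Ecscr, a chemotaxis regulator of endothelium, differed by 0.02 ± 0.09, and its sign turned to below 0 with centring, repeated quantile normalisation, array weights, or without wild type array 1, wild type array 6 or APT121 array 3.

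Matrix, enzyme and signalling proteins included 4 that fell, of 6 (66.7%, against 30.0% of all genes), with a median of -0.28. Rasip1, a Ras-interacting protein needed for vessel lumens, fell by 0.42 ± 0.09 (adjusted p 7.46e-04), and Egfl7, a matrix protein secreted by endothelium, by 0.27 ± 0.07 (adjusted p 0.00413), both without overlap. Nos3, the endothelial nitric oxide synthase, fell by 0.32 ± 0.11 (adjusted p 0.0281). It no longer passed without APT121 array 1 (-0.28, adjusted p 0.0889), 2 (-0.29, adjusted p 0.0795) or 4 (-0.33, adjusted p 0.0511), and also by the SAM-type statistic (adjusted p 0.0705) and with repeated quantile normalisation (adjusted p 0.0504). Mmrn2, a matrix glycoprotein of endothelium, fell by 0.29 ± 0.09 (adjusted p 0.0104). With only wild type arrays 1 to 4 as controls neither passed, with Nos3 at -0.22 (adjusted p 0.162) and Mmrn2 at -0.22 (adjusted p 0.0641). Without wild type arrays 5, 6 and 7, Nos3 was -0.29 (adjusted p 0.0778) and Mmrn2 -0.20 (adjusted p 0.0666).

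Vwf encodes von Willebrand factor, which endothelium stores and releases in haemostasis. It was 5.98, 5.94, 5.95 and 5.87 in APT121 and 5.84 to 6.19 in wild type (median 6.07). All 4 APT121 arrays lay within the wild type range, and the difference was -0.13 ± 0.07 (95% interval -0.28 to 0.03, adjusted p 0.164). Vwf did pass after repeated quantile normalisation, at -0.25 (adjusted p 0.0107), and with only wild type arrays 5 to 8 as controls, at -0.22 (adjusted p 0.0188). Arhgef15 differed by -0.10 ± 0.08 and did not pass.

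The lymphatic markers were Lyve1, a hyaluronan receptor that some macrophages also carry, and Prox1, the factor that specifies lymphatic endothelium. Lyve1 was 5.47, 5.67, 5.57 and 5.13 in APT121 and 5.54 to 6.23 in wild type (median 5.87). Its groups overlapped through APT121 arrays 2 and 3, and the difference was -0.43 ± 0.13 (adjusted p 0.0109). Without APT121 array 4, the lowest, it was -0.32 (adjusted p 0.0548), and with only wild type arrays 1 to 4 as controls -0.37 (adjusted p 0.0660). Prox1 was 3.20, 3.26, 3.19 and 3.14 in APT121 and 3.10 to 3.76 in wild type (median 3.44), so the APT121 arrays lay together at the low end of a wide wild type range. Prox1 was among the 25% of genes with the lowest mean, where no detection call separates a dim gene from background. The difference of Prox1 was -0.22 ± 0.11 (95% interval -0.45 to 0.01, adjusted p 0.0926). It passed without wild type array 4 (-0.27, adjusted p 0.0346) or 8 (-0.26, adjusted p 0.0431) and after centring (-0.27, adjusted p 0.0352).

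**Figure D3:**
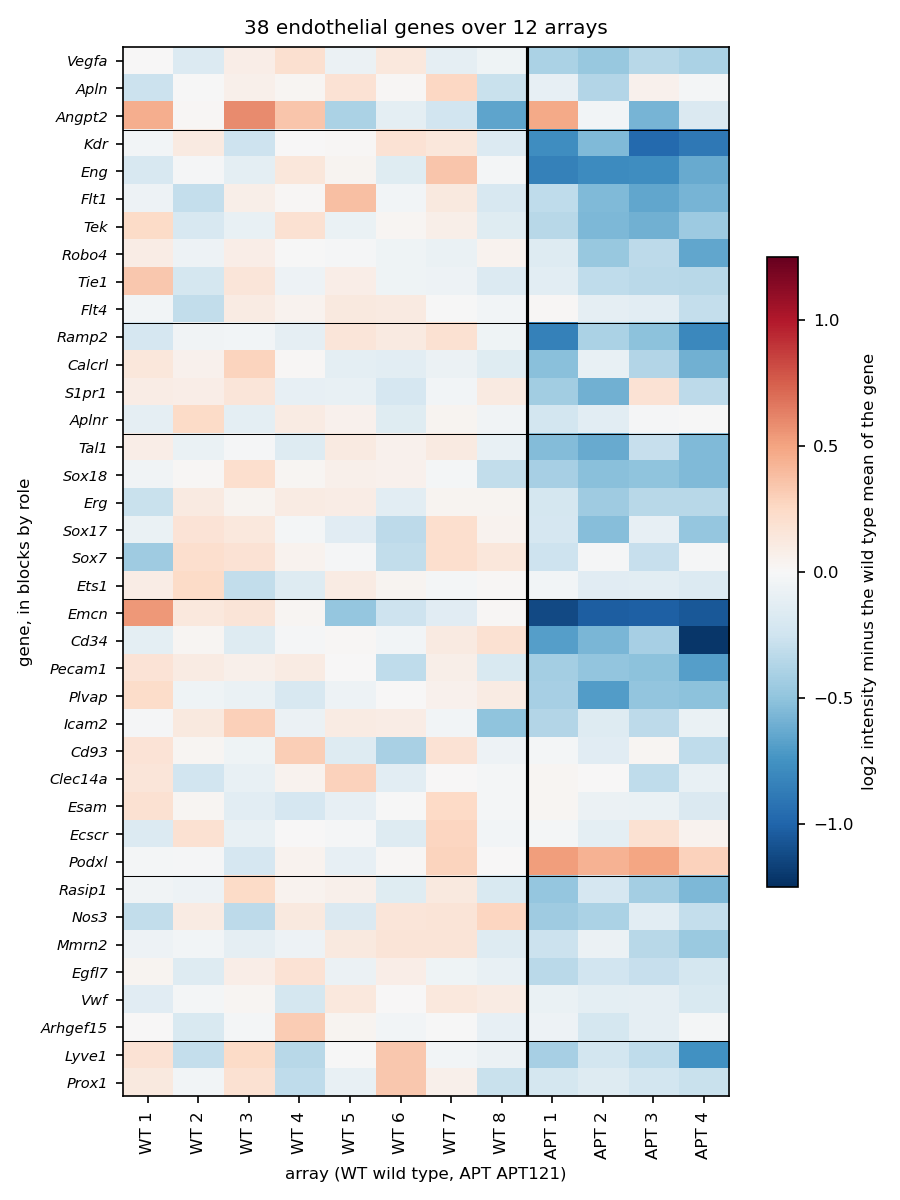
Log2 intensity of the 38 genes in each of 12 arrays, minus the wild type mean of the gene, in blocks by role (blue below, red above). The APT121 columns are blue for most genes, deepest for Emcn, Kdr, Eng and Cd34 (array 4), while Podxl is red in all 4 and Angpt2 is mixed in both groups.

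How often a gene passed went with its mean intensity, among all genes as well as the endothelial ones. Intensity depends on the probes too, so it is used here only to divide all genes at the median of their mean intensity. In the lower part, 11 of 17 endothelial genes (64.7%) did not pass (Flt4, Ets1, Sox7, Cd93, Clec14a, Icam2, Prox1, Aplnr, Apln, Arhgef15 and Angpt2), a share close to the 63.3% of all 9968 genes there. In the upper part, 3 of 21 (14.3%) did not pass (Esam, Vwf and Ecscr), against 31.1% of all 9967 genes there. Of these 21 genes, 17 were lower and 1 was higher, while 32.3% of all genes in the upper part were lower and 36.6% higher. Fitted on the upper part alone, the endothelial median was -0.43. The part of probe signal in these counts was not tested.

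Whether the endothelial genes kept step with each other was measured by taking each gene's value minus that of Pecam1 in the same array, a comparison chosen after the data were seen. Because Pecam1 itself fell, 72.6% of all genes were then higher in APT121 and 2.99% lower. Of the other 37 endothelial genes, 23 did not pass relative to Pecam1, 13 were higher and 1 was lower. The 13 were Podxl and 12 of the 14 that had not passed before (Flt4, Esam, Vwf, Ets1, Sox7, Cd93, Clec14a, Ecscr, Aplnr, Apln, Arhgef15 and Angpt2). Emcn was the 1 gene that passed the threshold with a larger fall than Pecam1, at a relative difference of -0.53 ± 0.14 (adjusted p 0.00126). The ratio shows unequal change between these genes and Pecam1, not which of them changed. Flt1 and Tek fell by nearly as much as Pecam1, with relative differences of 0.0034 ± 0.13 and 0.04 ± 0.12. Kdr at -0.27 ± 0.13 (adjusted p 0.0691) and Eng at -0.23 ± 0.13 (adjusted p 0.113) were also below 0 but did not pass. Nor did Cd34 at -0.20 ± 0.14 (adjusted p 0.195) and Ramp2 at -0.11 ± 0.14 (adjusted p 0.464).

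Other genes of vessel signalling moved in both directions. Of 38 measured genes of the VEGF, angiopoietin, BMP, Notch, semaphorin and endothelin pathways in vessels, 22 were lower, 6 higher and 10 not past, with a median of -0.26. That is 57.9% lower and 15.8% higher, against 30.0% and 22.8% of all genes. The ligand genes held both extremes. Angpt1, the gene of angiopoietin 1, was 6.21, 6.13, 5.88 and 6.15 in APT121 and 3.64 to 4.15 in wild type (median 3.94). The groups were far apart, with a difference of 2.15 ± 0.10 (adjusted p 3.77e-11), a 4.43-fold rise, while its receptor gene Tek fell. Edn1, the gene of the vasoconstrictor endothelin 1, which epithelia also make, was 7.88, 7.62, 7.06 and 8.58 in APT121 and 4.79 to 5.43 in wild type (median 5.09). It rose 6.56-fold (2.71 ± 0.19, adjusted p 8.13e-09).

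Adm, the gene of adrenomedullin and named after its values were seen, was 4.96, 4.90, 4.74 and 4.33 in APT121 and 5.47 to 6.19 in wild type (median 5.85). The ligand gene and both receptor genes of this pathway were lower, Adm by -1.11 ± 0.14 (adjusted p 5.91e-06), beside Ramp2 at -0.64 and Calcrl at -0.40. Notch1, a Notch receptor that luminal and basal epithelium also express, rose by 1.64 ± 0.07 (adjusted p 1.25e-11), and Id1, a target of BMP signalling in many cells, by 1.18 ± 0.14 (adjusted p 2.24e-06). Notch4, the Notch receptor largely restricted to endothelium, fell by 0.30 ± 0.09. Dll4, the endothelial Notch ligand, differed by -0.21 ± 0.09 (adjusted p 0.0512) and passed without wild type array 3 (adjusted p 0.0257), wild type array 4 (0.0373) or APT121 array 3 (0.0218), and under 4 other alternatives.

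**Figure D4:**
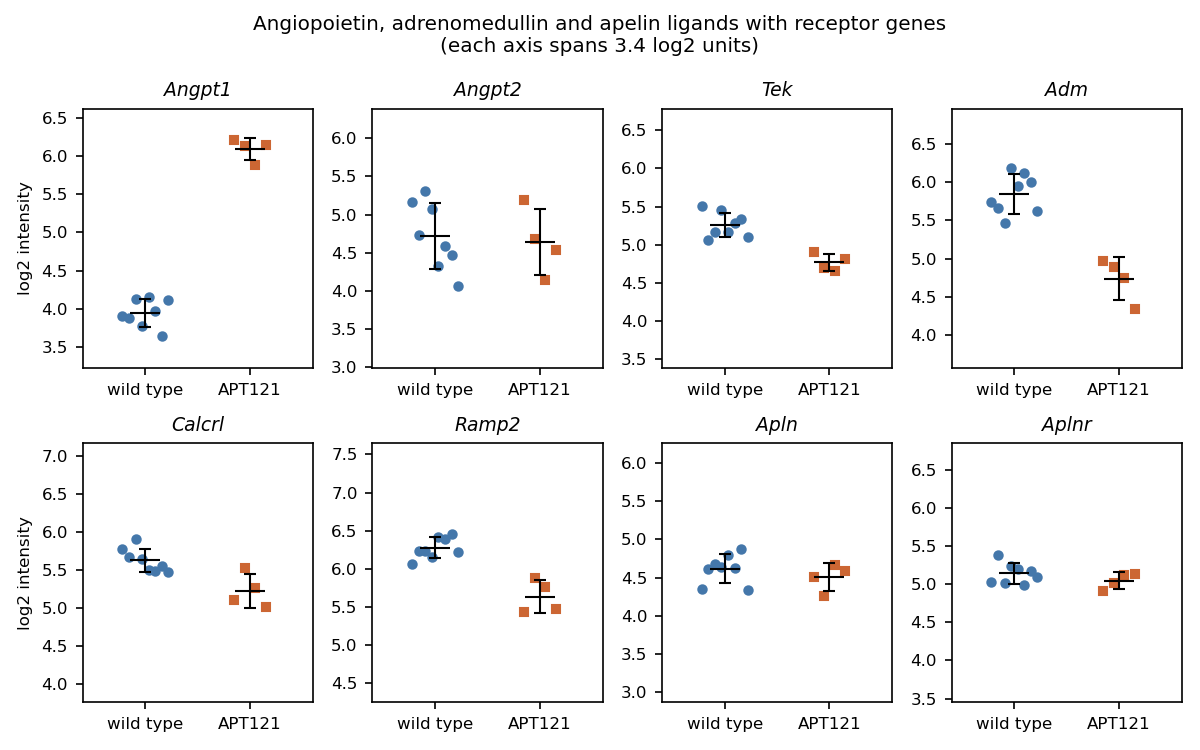
Log2 intensity of ligand genes and their receptor genes in each array, wild type (8 circles) and APT121 (4 squares), with mean and SD; every vertical axis spans the same number of log2 units. Angpt1 is higher in APT121 (5.88 to 6.21 against 3.64 to 4.15) while Tek is lower, Adm, Calcrl and Ramp2 are all lower, and Angpt2, Apln and Aplnr overlap.

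Genes of the remaining VEGF family ligands did not rise. Pgf, the gene of placental growth factor, a ligand of VEGFR1, fell by 0.40 ± 0.14 (adjusted p 0.0259). Pgf no longer passed without APT121 array 3 (-0.40, adjusted p 0.0525) or 4 (-0.29, adjusted p 0.112), with repeated quantile normalisation (adjusted p 0.0917) and with only wild type arrays 1 to 4 as controls (adjusted p 0.158). The SAM-type statistic (adjusted p 0.0539) and the fit without wild type arrays 5, 6 and 7 (adjusted p 0.123) did not call it either. Vegfc differed by -0.21 ± 0.11 (adjusted p 0.124), and by -0.26 without wild type array 8 (adjusted p 0.0433) and -0.35 with only wild type arrays 1 to 4 as controls (adjusted p 0.0105). Vegfb and Vegfd were named after their values were seen and differed by -0.27 ± 0.06 (adjusted p 0.00249) and -0.03 ± 0.09. Nrp1, a co-receptor of VEGF and semaphorins, was 6.00, 5.95, 6.02 and 5.05 in APT121, where array 4 stood far below the others, and 5.85 to 6.47 in wild type. Its difference was -0.33 ± 0.16 (adjusted p 0.0918), and Nrp1 passed after centring (-0.38, adjusted p 0.0449) and repeated quantile normalisation (-0.43, adjusted p 0.0254). Without APT121 array 4 the Nrp1 difference was only -0.09 (adjusted p 0.489).

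A list of 42 further endothelial genes behaved much like the 38, with 29 lower, 3 higher and 10 not past and a median of -0.32. Of all genes, 30.0% were lower and 22.8% higher. The largest falls in it were those of Cd36 (-1.47 ± 0.29, adjusted p 5.18e-04), Lmo2 (-1.44 ± 0.08, adjusted p 1.96e-10), Fabp4 (-1.41 ± 0.35, adjusted p 0.00324) and Rhoj (-1.13 ± 0.23, adjusted p 7.25e-04). Lmo2 encodes a partner of Tal1 and Rhoj a small GTPase of endothelium. Cd36 and Fabp4 encode a fatty acid transporter and a fatty acid binding protein of capillaries, and adipocytes make both. Wild type arrays 5 and 7, highest in adipocyte markers, were also the highest for Cd36 (7.44 and 7.66 against 5.78 to 7.03) and Fabp4 (7.58 and 8.02 against 5.64 to 7.17). The part of adipocyte RNA in these differences was not tested.

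Of 13 further lymphatic genes, 5 were lower, 2 higher and 6 not past, with a median of -0.21. The shares of 38.5% lower and 15.4% higher were not far from the 30.0% and 22.8% of all genes. Gja1, the gene of connexin 43, fell by 0.94 ± 0.11 (adjusted p 3.11e-06) and Pdpn, the gene of podoplanin, by 0.71 ± 0.12 (adjusted p 1.76e-04), and neither is restricted to lymphatics. Fxyd6, a regulator of the sodium pump, rose by 0.86 ± 0.11 (adjusted p 6.85e-06) and Pard6g, a polarity protein, by 0.72 ± 0.08 (adjusted p 1.41e-06). With only wild type arrays 1 to 4 as controls, 8 of the 13 were lower, as were 24.2% of all genes.

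Mural cells, which wrap capillaries and small vessels, were followed through 15 genes, of which 10 were lower, 3 higher and 2 not past (median -0.31). The shares were 66.7% lower and 20% higher, against 30.0% and 22.8% of all genes. Pdgfrb, the receptor by which endothelium recruits pericytes, fell by 0.37 ± 0.10 (adjusted p 0.00554) and Rgs5, a pericyte marker, by 0.41 ± 0.13 (adjusted p 0.0172). Without APT121 array 4 the Rgs5 difference was -0.26 (adjusted p 0.0871), and with only wild type arrays 5 to 8 as controls its adjusted p was 0.110. Kcnj8, a potassium channel gene of pericytes, fell by 0.49 ± 0.10 (adjusted p 8.01e-04), and Des, which smooth muscle shares, by 0.97 ± 0.09 (adjusted p 2.66e-07). In the opposite direction moved both subunit genes of the nitric oxide receptor guanylate cyclase, Gucy1b1 by 1.85 ± 0.15 (adjusted p 3.17e-08) and Gucy1a1 by 0.70 ± 0.10 (adjusted p 3.13e-05).

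Hypoxia response genes, which include activators of Vegfa, showed no common direction. Of 24 measured, 9 were lower, 5 higher and 10 not past, with a median of -0.03. The shares of 37.5% lower and 20.8% higher were not far from the 30.0% and 22.8% of all genes. Hif1a, the gene of the oxygen-regulated factor HIF-1 alpha, rose by 0.50 ± 0.06 (adjusted p 4.97e-06), with APT121 at 8.60 to 8.89 and wild type at 8.17 to 8.29. Kdm3a and Bhlhe40, a histone demethylase and a repressor of the clock, rose by 1.30 ± 0.09 (adjusted p 3.89e-09) and 1.06 ± 0.15 (adjusted p 2.04e-05). Ddit4, a stress-induced inhibitor of mTOR, and P4ha1, a collagen prolyl hydroxylase, both fell by 1.00, with SEs of 0.12 and 0.10 (adjusted p 4.17e-06 and 5.60e-07).

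Epas1 encodes HIF-2 alpha, the form best known from endothelium. It was 7.33, 7.00, 6.42 and 7.75 in APT121 and 6.61 to 6.99 in wild type (median 6.88), so APT121 arrays lay on both sides of the wild type range. The difference of Epas1 was 0.28 ± 0.17 (adjusted p 0.177), and 1 array moved it far in either direction. Without APT121 array 3 it was 0.51 (adjusted p 0.00383), and without APT121 array 4 it was 0.07 (adjusted p 0.716).

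Markers of the other cell types in the lobe moved with the endothelial genes in part. Beside the counts that follow, 30.0% of all genes were lower and 22.8% higher. Of the stromal lists, all 10 smooth muscle markers fell (median -0.68), 9 of 10 fibroblast markers fell and 1 rose (median -0.52), and 7 of 8 adipocyte markers fell with 1 not past (median -0.73). The summed intensity of the smooth muscle markers was 7105 to 9469 in APT121 and 11780 to 13610 in wild type, that of the fibroblast markers 3390 to 4634 against 4866 to 5614, and that of the adipocyte markers 189 to 227 against 236 to 582. Epithelial markers divided. Of 8 luminal markers, 5 were higher, 2 lower and 1 not past (median 0.83, sums 18830 to 19520 against 17090 to 19190). The 2 lower luminal markers were Pbsn at -3.27 and Hoxb13 at -0.57. Of 5 basal markers, 4 were lower and 1 not past (median -0.85, sums 235 to 428 against 571 to 742). Myeloid markers were higher in 9 of 10 with 1 not past (median 0.59), with sums of 527 to 1135 against 488 to 600. That count was 5 with only wild type arrays 1 to 4 as controls and also 5 without wild type arrays 5, 6 and 7. Of all genes, 20.4% and 21.2% were higher in these fits, in that order. Seminal vesicle markers were higher in 3 of 7 with 4 not past (median 1.94). Megakaryocyte and erythroid markers, from lineages that also express Tal1, were lower in 2 of 7 with 5 not past (median -0.28), with sums of 166 to 181 against 184 to 256. Their count of lower genes was 5 after centring, 4 with only wild type arrays 5 to 8 as controls and 0 by limma with only wild type arrays 1 to 4, where 3 had an unadjusted p under 0.05. The shares of all genes that were lower in these fits were 39.2%, 28% and 24.2%, in that order. None of these markers is listed at 0, since array intensities have a background. The part of these cell types in the endothelial differences was not tested.

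**Figure D5:**
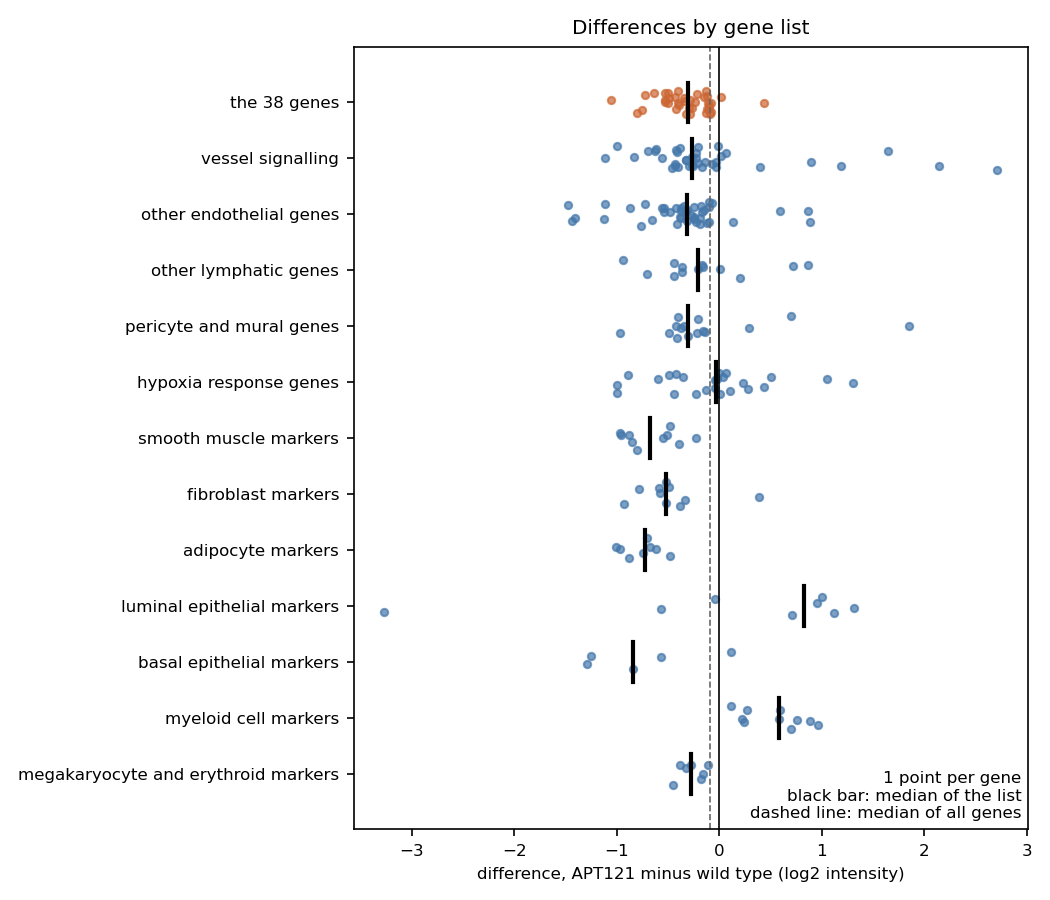
Difference in log2 intensity (APT121 minus wild type) of each gene in the 38 endothelial genes and in 12 lists, with the median of each list as a bar and that of all genes (-0.09) as a dashed line; seminal vesicle markers are not drawn. The 38 genes (median -0.31) lie close to the further endothelial and mural lists (-0.32 and -0.31), smooth muscle, fibroblast, adipocyte and basal markers lie lower, and luminal and myeloid markers lie higher.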

How the data were processed

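The deposited table holds 1 linear intensity per transcript cluster, made by the authors with RMA per the series design text and the submitters' processing notes. No software or version for this step is given in the sources used here. Log2 was taken here. The 21780 of 28815 clusters that the platform annotation pairs with 1 gene symbol were used. For 998 genes with several clusters the highest-mean one stood for the gene, which left 19935 genes, with no filter on low values. Each of the 38 endothelial genes had 1 such cluster. No detection calls were used, and an array has no read depth.

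Genotypes were compared over all 12 arrays with limma (version 3.58.1 under R 4.3.3), by lmFit and eBayes with no term other than genotype, two-sided, with Benjamini-Hochberg adjustment over all genes and a threshold of 0.05. SAM at 5% FDR is the method the design text names, so a SAM-type statistic (100 groupings) was run beside limma. The scripts were tested on simulated data.

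The genes and the 13 lists beside them (vessel signalling, further endothelial, further lymphatic, mural, hypoxia response, smooth muscle, fibroblast, adipocyte, seminal vesicle, luminal, basal, myeloid, and megakaryocyte and erythroid) were chosen with earlier results of these data known. Lists are described by counts and medians with no set test. For some endothelial genes each APT121 value is given, with the lowest, median and highest wild type value. They are those past the threshold with an absolute log2 difference of at least 0.8, and 15 that were always given. The 15 are Pecam1, Kdr, Flt1, Flt4, Tek, Tie1, Vegfa, Angpt2, Apln, Aplnr, Lyve1, Prox1, Vwf, Cd34 and Plvap. From the vascular and hypoxia lists, up to 4 genes past the threshold with the largest absolute differences are named, with 13 always named (Nrp1, Vegfc, Pgf, Angpt1, Dll4, Notch4, Cdh5, Cldn5, Pdpn, Pdgfrb, Rgs5, Hif1a and Epas1). Alternatives were other scalings, filters, an offset, moderation, array weights, a replicate block, subsets of arrays, the SAM-type statistic and a 1.5-fold minimum. Further genes named after their values were seen are given as such. The transgene is not analysed here. No batch is given by the labels.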

Additional observations from a re-analysis of the deposited data

Results flagged for a closer look

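In 4 cases, 1 array lay far from the rest of its group by Dixon's test for a single extreme value, out of 76 groups of values examined (38 genes in 2 genotypes). Chance gives about 1 such case in 20 groups. Flt4 had its lowest wild type value in array 2, at 4.33, with the other 7 between 4.60 and 4.76. Tie1 had its highest APT121 value in array 1, at 5.38, with the other 3 between 5.16 and 5.19. Icam2 had its lowest wild type value in array 8, at 4.50, with the other 7 between 4.93 and 5.30. Arhgef15 had its highest wild type value in array 4, at 4.87, with the other 7 between 4.36 and 4.59.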

How the results depend on the processing

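Of the 23 endothelial genes that were lower, 17 kept that call in every alternative in which they were fitted, except the 1.5-fold minimum and the values relative to Pecam1, and Tie1, Sox17, Nos3, Mmrn2, S1pr1 and Lyve1 lost it in at least 1. Leaving out 1 array at a time gave 18 (without APT121 array 4) to 24 lower genes, 1 higher gene, medians of -0.36 to -0.29 and 8979 to 10493 of all genes past the threshold. The 1.5-fold minimum left 3552 of all genes (6.34% lower and 11.5% higher) and 5 lower and 0 higher endothelial genes. The endothelial median was -0.43 without the 50% of genes with the lowest mean and -0.22 with log2(value + 16), an offset that shrinks the differences of dim genes. Relative to Pecam1, added after seeing the data, 13 were higher and 1 lower. The named list genes were also run under the alternatives after seeing the data.

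Ecscr, whose difference did not pass, turned to -0.031 with centring, -0.093 with repeated quantile normalisation and -0.0063 with array weights, and ran from -0.038 to 0.069 when 1 array was left out. Angpt2 turned to 0.11 with array weights and 0.27 with only wild type arrays 5 to 8 as controls, and ran from -0.26 to 0.087 when 1 array was left out. Efnb2, not past, ran from -0.10 to 0.052 in the same way. Centring moves the difference of every gene by the same amount, and the median of all genes went from -0.09 to -0.15 with it. Calls gained after centring carry this shift too. The cause of the other changes was not tested.

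The labels number replicates 1 to 4 in both genotypes without saying that a number pairs the pools. Deviations of same-numbered pools correlated at 0.04, 0.04, 0.12 and -0.01, so the numbers were not taken to pair them, and 1 of wild type arrays 1 to 4 correlated best with the APT121 array of its own number. With the replicate block over replicates 1 to 4, 22 endothelial genes were lower, 1 higher, the median was -0.34 and 8814 of all genes passed. Nos3, Mmrn2 and Acvrl1 lost their calls in it (adjusted p 0.169, 0.0668 and 0.0648) and Icam2 and Vegfc gained one (0.0366 and 0.00753).

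The SAM-type statistic called 20 endothelial genes lower and 8138 genes in all. With 4 APT121 arrays of pooled RNA, SEs of 0.07 to 0.22 limit which small differences can be called, and no detection call separates dim genes from background.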

Other observations

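Further genes of vessel signalling are given here as values, all chosen after they were seen. Smad6, an inhibitor of BMP signalling that endothelium expresses strongly, was 5.64, 5.77, 6.20 and 5.83 in APT121 and 6.28 to 6.66 in wild type (median 6.47). Its fall of 0.62 ± 0.10 (limma adjusted p 8.44e-05) ran opposite to the rise of Id1, another BMP target. Acvrl1, the gene of the endothelial BMP receptor ALK1, fell by 0.23 ± 0.06 (adjusted p 0.00583), and Hey1, a Notch target, by 0.69 ± 0.13 (adjusted p 3.61e-04), opposite to Notch1. Ptprb encodes the phosphatase VE-PTP, which restrains Tie2, and fell by 0.46 ± 0.08 (adjusted p 1.59e-04). All 4 of these genes had APT121 arrays below every wild type array, as 16.9% of all genes had. In the whole list of 38 vessel signalling genes, 15 had this order.

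Guidance and endothelin receptor genes also differed. Sema3c, a secreted semaphorin, was 7.25, 7.30, 7.07 and 7.61 in APT121 and 8.15 to 8.52 in wild type, and fell by 0.99 ± 0.10 (adjusted p 3.28e-07). Nrp2, a semaphorin and VEGF-C co-receptor, fell by 0.41 ± 0.09 (adjusted p 9.80e-04). Ephb4, a venous receptor for ephrin-B2, rose by 0.40 ± 0.08 (adjusted p 3.88e-04), with APT121 at 7.47 to 7.60 and wild type at 6.94 to 7.36. Its ligand gene Efnb2 differed by -0.03 ± 0.08 (adjusted p 0.755). Ednrb, an endothelin receptor, fell by 0.42 ± 0.08 (adjusted p 3.00e-04), while Edn1 rose. Among capillary genes, Aqp1, a water channel, fell by 0.65 ± 0.09 (adjusted p 1.66e-05), and Gpihbp1, which carries lipoprotein lipase across endothelium, by 0.54 ± 0.11 (adjusted p 8.87e-04). Several of these genes are also expressed outside endothelium, and the cell type behind each value was not tested.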
